A study of Homo sapiens with 6 samples.

Results

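The CDK inhibitors are the small proteins that hold cyclin-dependent kinases in check, and 8 of their genes were followed here among the 20030 rows of the count table: CDKN1A, CDKN1B and CDKN1C of the CIP/KIP family, CDKN2A, CDKN2B, CDKN2C and CDKN2D of the INK4 family, and CDKN3. They were taken by gene symbol as members of these families, by a rule that holds no measured value, though with earlier results of these data known. All 8 symbols were found in the counts and in the FPKM. The measurements came from KGN, a single human granulosa-like tumour cell line, in 6 RNA-seq libraries made 48 h after transfection. One group of 3 libraries received a negative control siRNA (genotype given as WT) and the other group of 3 received siRNA against the long noncoding RNA SNHG5 (genotype given as SNHG5 knockdown). The first are called control libraries and the second knockdown libraries, after their labels. The sequence of either siRNA is not given in the sources used here, and SNHG5 itself was not analysed here. The series title links SNHG5 to miR-92a-3p and CDKN1C in polycystic ovary syndrome, so the comparison asks how the inhibitor transcripts differed once SNHG5 was targeted.

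A cell commits to DNA replication when cyclin D with CDK4 or CDK6, and then cyclin E with CDK2, phosphorylate the RB proteins and free the E2F transcription factors. INK4 proteins bind CDK4 and CDK6 alone and keep cyclin D off them, while CIP/KIP proteins bind whole cyclin-CDK complexes and also help cyclin D complexes to assemble. CDKN3 is a phosphatase that removes the activating phosphate from CDK2 and CDK1, and is itself made mainly in dividing cells. In granulosa cells, p27 and p21 are best known for the exit from division when follicles luteinise.

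Total counts per library ran from 18232634 to 22088913, so that a count of 3, taken as the floor of detection, stood for 0.136 to 0.165 CPM (a gene's counts scaled to its library's total). Knockdown replicate 2 lay apart from the other 2 of its group on the second principal component (13.1% of the variance). Of 16 granulosa markers, 10 had a mean of at least 1 CPM, among them FOXL2, NR5A1 and AMH. The others, below it, were the aromatase gene CYP19A1, the receptor gene AMHR2, INHA, CYP11A1, HSD17B1 and WT1. The granulosa markers summed to 1057 to 1146 CPM in the control libraries and 553 to 590 CPM in the knockdown libraries, chiefly through FST, encoding follistatin, which had means of 821 and 309 CPM. Of 11 tested, 4 fell and 1 rose, 45.5% called beside 40.2% of all tested genes: FST had -1.42, the FSH receptor gene FSHR -1.15, the nuclear receptor gene NR5A2 -0.93 and the inhibin subunit gene INHBB 1.10 on the log2 scale, and their part in the results was not tested. Of 14 markers of epithelial, immune, endothelial, stromal, theca and germ cells, 5 had a mean of at least 1 CPM. PDGFRA and CD68 were the highest, with means of 30.1 and 22.3 CPM in the control libraries. CDH5, CYP17A1 and DDX4 had no count in any library. The summed level of these 14 markers was 57.8 to 59.3 CPM in the control libraries and 55.7 to 60.3 CPM in the knockdown libraries. Of the 5 tested, 0 passed. The macrophage marker CD68 came closest, at 0.22 (edgeR adjusted p = 0.0508), and passed in 11 of 19 alternatives. Bulk RNA cannot tell fewer cells with a transcript from less of it per cell.

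The microRNA of the series title and others known for targeting p21 and p27 transcripts are shown first, so that their matches in the inhibitor genes can be read. Mature microRNAs (RefSeq, GRCh38.p14) are written 5′ to 3′ with bases 2 to 8, the seed, in capitals.
hsa-miR-92a-3p: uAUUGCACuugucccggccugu
hsa-miR-221-3p: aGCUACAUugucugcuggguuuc
hsa-miR-222-3p: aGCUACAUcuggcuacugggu
hsa-miR-17-5p: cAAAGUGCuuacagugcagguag
hsa-miR-106b-5p: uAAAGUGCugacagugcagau
The seed of miR-92a-3p is shared by miR-92b-3p, miR-25-3p, miR-32-5p, miR-363-3p and miR-367-3p. miR-221-3p and miR-222-3p share one seed, and miR-17-5p, miR-20a-5p, miR-93-5p and miR-106b-5p share another. No microRNA level was measured in these libraries.

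The complement of each seed was searched on the sense strand of the longest annotated 3′ UTR of each member (GENCODE v29, GRCh38), as GTGCAAT for the miR-92a-3p seed, ATGTAGC for that of miR-221-3p and GCACTTT for that of miR-17-5p. These are the sites found in the CIP/KIP genes, with the 7 matching bases in capitals, and none overlapped another.
CDKN1C, miR-92a-3p: ttttgaaaactGTGCAATgtattaataacg
CDKN1C, miR-221-3p: tgggaccgttcATGTAGCagcaaccggcgg
CDKN1B, miR-221-3p, first: aaaagcgttggATGTAGCattatgcaatta
CDKN1B, miR-221-3p, second: ttttaccttttATGTAGCacataaactttg
CDKN1A, miR-17-5p, first: gtaaacagatgGCACTTTgaaggggcctca
CDKN1A, miR-17-5p, second: cccagttcattGCACTTTgattagcagcgg
The miR-92a-3p match in CDKN1C lies in exon 3 of 3, at chr11:2883762-2883768 on the minus strand, and the miR-221-3p match at chr11:2883829-2883835. Those of CDKN1B lie at chr12:12721228-12721234 and chr12:12721301-12721307, and those of CDKN1A at chr6:36686268-36686274 and chr6:36686948-36686954, all on the plus strand and in exon 3 of 3. CDKN1C was the only one of the 8 members with GTGCAAT in that UTR, and CDKN2B the only INK4 gene with any of the 3 words (ATGTAGC).

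Matches of this length are common, and a match is a description of letters, not of binding. GTGCAAT was present in the 3′ UTR of 13.5% of 12292 tested genes with an annotated 3′ UTR, ATGTAGC in 9.59% and GCACTTT in 25.7%. The genes with GTGCAAT had a median log2 fold change of 0.02 against -0.01 in those without it, and 18.9% and 20.2% of them were called lower. Their UTRs were longer, with a median of 3236 bases against 1216, and no trend on length was removed from these values.

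In the knockdown libraries CDKN1A and CDKN1B of the CIP/KIP family fell, and the INK4 transcripts that could be measured did not pass the test. CDKN1A, encoding p21, fell 3.55-fold and CDKN1B, encoding p27, fell 1.78-fold. CDKN1C, encoding p57, was 3.41-fold lower from a level near the floor, but it entered the test through its control libraries alone. CDKN2C, encoding p18, CDKN2D, encoding p19, and CDKN3 differed by less than 1.12-fold, and CDKN2A and CDKN2B were at or below the floor of 3 counts in all 6 libraries. Changes were tested on the counts with edgeR (2-sided quasi-likelihood test, TMM scaling), with p adjusted over 12508 genes and a threshold of 0.05.

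Of the 8 members, 6 were tested, 0 rose, 3 fell and 3 did not pass. CDKN1A fell at least 2-fold, as did 1.5% of all tested genes. Over all tested genes 19.9% were called lower, 20.3% higher and 40.2% either way. CDKN1C entered the test through its control libraries alone, since the filter asked for 0.497 CPM in 3 libraries and its knockdown libraries were all below that. A gene admitted in this way had to differ. The other 5 tested members were above the filter in every library, and of these 2 fell, 0 rose and 3 did not pass. In CPM, both groups were separate for CDKN1A, CDKN1B, CDKN1C and CDKN2D, each lower in the knockdown libraries, and overlapped for CDKN2C and CDKN3. Over all tested genes the groups did not overlap in 49.7%, made up of 24.2% lower and 25.6% higher. With upper quartile scaling 39.9% of the calls over all genes were higher, against 50.5% with TMM, while CDKN1A, CDKN1B and CDKN1C were called lower under each of the scalings tried.

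**Figure D1:**
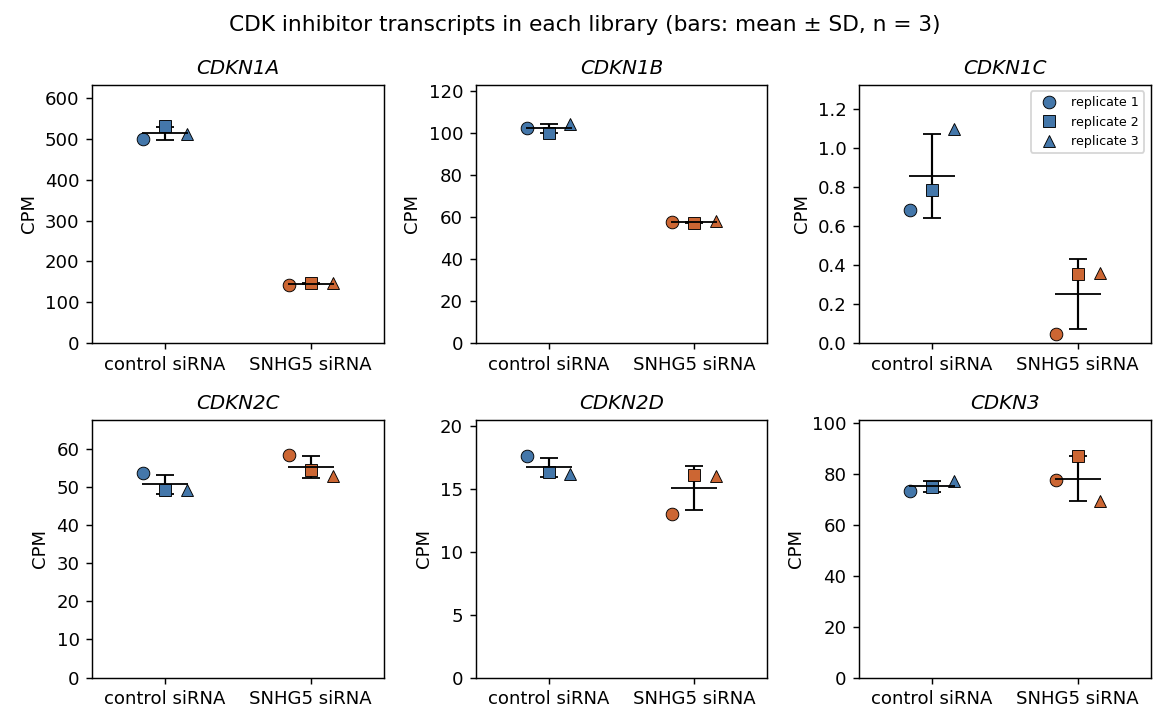
CPM of 6 CDK inhibitor genes in each library (vertical axes from 0, each panel with its own scale); blue points are control siRNA, orange points SNHG5 siRNA, symbols give the replicate number, and black bars the mean ± SD of 3 libraries. The groups of CDKN1A, CDKN1B and CDKN1C do not overlap, whereas those of CDKN2C and CDKN3 overlap and those of CDKN2D nearly touch. CDKN1C entered the test through its control libraries alone.

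CDKN1A (chromosome 6, 36676460 to 36687339, plus strand, protein coding) encodes p21, which binds CDK2 complexes and the replication clamp PCNA. Its level was 499, 531 and 513 CPM in control replicates 1, 2 and 3, and 143, 146 and 146 CPM in the knockdown replicates. Every knockdown library was under every control library, and the 3 libraries of each group were close together. The log2 fold change was -1.83 ± 0.05 (SE; 95% interval -1.93 to -1.73; edgeR adjusted p = 2.99e-15). Only 0.144% of all tested genes had a log2 fold change as low or lower. These libraries rest on 2843 to 10799 counts for this gene, so counting error was small beside the change.

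CDKN1B (chromosome 12, 12715058 to 12722371, plus strand, protein coding) encodes p27, known for holding CDK2 inactive in resting cells and for being controlled largely by protein turnover. It had 102, 99.8 and 104 CPM in the control libraries and 57.4, 57.3 and 57.8 CPM in the knockdown libraries. The groups did not overlap. The SD within the knockdown group was 0.302 CPM, less than counting error alone would give at 1123 to 1267 counts. The log2 fold change was -0.83 ± 0.05 (SE; 95% interval -0.95 to -0.72; edgeR adjusted p = 8.72e-10).

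CDKN1C (chromosome 11, 2883213 to 2885773, minus strand, protein coding), the gene of the series title, encodes p57, an imprinted inhibitor expressed from the maternal copy. It had 14, 16 and 20 counts in the control libraries and 1, 7 and 7 counts in the knockdown libraries, which is 0.684, 0.786 and 1.10 CPM against 0.0453, 0.352 and 0.360 CPM. All 3 control libraries were higher than all 3 knockdown libraries, which its entry into the test through the control libraries alone made certain. The counting intervals of single libraries overlapped, however: the exact 95% Poisson interval was 7.65 to 23.5 for the 14 counts of control replicate 1 and 2.81 to 14.4 for the 7 counts of knockdown replicates 2 and 3. Over the groups, 50 and 15 counts had intervals of 37.1 to 65.9 and 8.40 to 24.7 (counting error only, without the spread between libraries). Their separation adds nothing, given how the gene entered the test. The log2 fold change of -1.77 ± 0.48 (SE; edgeR adjusted p = 0.00690) had a 95% interval of -2.79 to -0.76. Leaving out control replicate 3 ended the call (-1.56, adjusted p = 0.0516 in edgeR). Leaving out knockdown replicate 1, which held 1 count, gave -1.24. In the FPKM, where knockdown replicate 1 is listed at 0, it did not pass, at -0.30 on the log2(FPKM + 1) scale (limma adjusted p = 0.0696).

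The INK4 gene CDKN2C (chromosome 1, 50960745 to 50974633, plus strand), whose product p18 restrains CDK6 and CDK4, had 53.5, 49.3 and 49.2 CPM in the control libraries. In the knockdown libraries it had 58.3, 54.5 and 52.8 CPM. The lowest knockdown library lay under the highest control library. The log2 fold change was 0.12 with a 95% interval of -0.01 to 0.25 (edgeR adjusted p = 0.133). In the FPKM the groups were separate, with 18.3 to 18.9 and 20.0 to 22.6 FPKM, and limma called the gene higher, at 0.19 on the log2(FPKM + 1) scale (adjusted p = 0.0227). With the trend on GC content removed edgeR also called it higher, at 0.19 (adjusted p = 0.0182).

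CDKN2D (chromosome 19, 10566462 to 10569059, minus strand), which encodes p19, had 17.6, 16.4 and 16.2 CPM in the control libraries and 13.0, 16.2 and 16.0 CPM in the knockdown libraries. In CPM the groups did not overlap, but knockdown replicates 2 and 3 came close to the lowest control library and replicate 1 lay lower. In the FPKM the groups overlapped, with 13.2 to 13.9 in the control libraries and 11.7 to 14.6 in the knockdown libraries. The log2 fold change of -0.16 (95% interval -0.36 to 0.04) did not pass (edgeR adjusted p = 0.186) and was -0.06 once knockdown replicate 1 was left out. CDKN3 (chromosome 14, 54396849 to 54420218, plus strand), the CDK phosphatase, had 73.0, 74.8 and 77.1 CPM in the control libraries and 77.7, 87.1 and 69.3 CPM in the knockdown libraries. The knockdown libraries lay on both sides of the control libraries. Its log2 fold change was 0.05 (95% interval -0.09 to 0.20, edgeR adjusted p = 0.579). It was -0.03 when knockdown replicate 2 was left out.

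**Figure D2:**
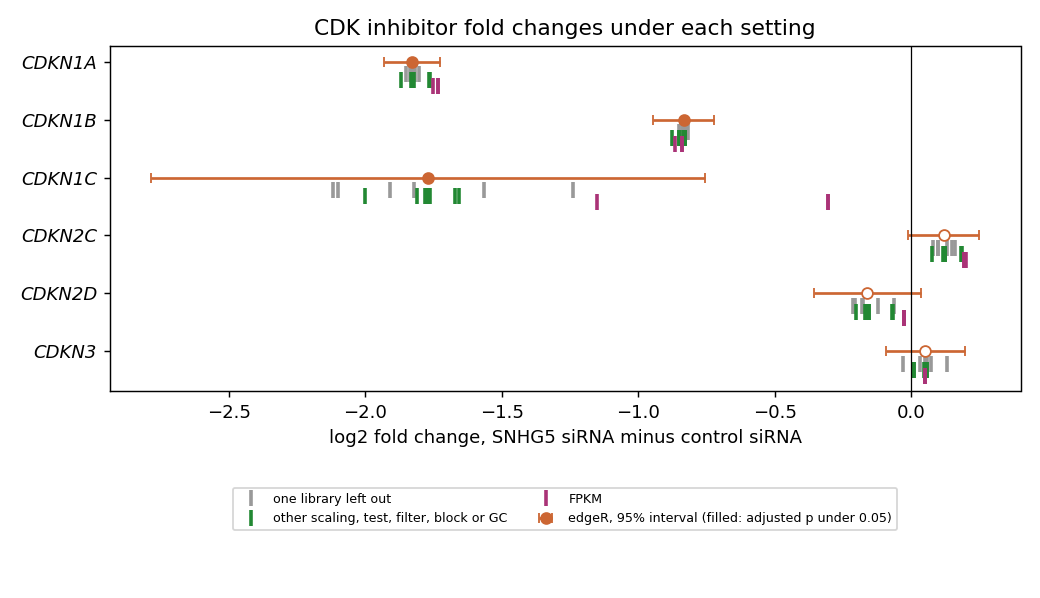
Log2 fold change (horizontal axis, SNHG5 siRNA minus control siRNA) of the 6 tested members. Circles with bars are the edgeR values with 95% intervals, filled where the adjusted p was under 0.05, and ticks below them are the alternatives. Those of CDKN1A and CDKN1B stay within -1.87 to -1.73 and -0.87 to -0.82, while those of CDKN1C spread from -2.12 to -0.30. The -0.30 is on the log2(FPKM + 1) scale, where the added 1 exceeds every CDKN1C level, and with 0.1 added it was -1.15.

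CDKN2A, whose single row covers both p16 and the ARF protein, had no count in the control libraries and 1, 2 and 0 counts in the knockdown libraries. CDKN2B, which encodes p15, had 1 count in control replicate 3 and 0 in the other 5 libraries. Neither was tested and no fold is given, since both groups were at or under the floor. For CDKN2A, with 0 counts among the 59065703 of the control libraries, the floor of 3 counts over the group stands for 0.0508 CPM and the exact 95% Poisson upper limit for 0.0625 CPM. For CDKN2B in the knockdown libraries they stand for 0.0489 and 0.0601 CPM (counting error only).

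The 2 genes lie side by side on chromosome 9, CDKN2A from 21967753 to 21995301 and CDKN2B from 22002903 to 22009363, both on the minus strand. The adjoining gene MTAP (21802543 to 21937651, plus strand), a broadly expressed enzyme of methionine salvage, had 4 counts in the control group and 0 in the knockdown group. On either side of these 3 genes transcripts were found. KLHL9, a ubiquitin ligase adaptor, had 2251 and 2519 counts over the groups, and the transcription factor gene DMRTA1 had 386 and 307. The listed gene IFNE, between KLHL9 and MTAP, had 20 and 13, and ELAVL2, beyond DMRTA1, had 0 in both groups. DMRTA1 was called lower (-0.40, edgeR adjusted p = 0.0362), a call that ended in DESeq2, in the FPKM and on leaving out control replicate 3 or knockdown replicate 2. KLHL9 did not pass (0.10, edgeR adjusted p = 0.388), though it did once knockdown replicate 2 was left out. Of the 6 genes listed around this locus, 2 were tested, 1 fell and 0 rose, where 19.9% of all tested genes were called lower. CDKN2B-AS1 was not analysed here. The DNA of the locus was not measured.

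Around CDKN1C, the imprinted region of chromosome 11 gave 7 tested genes of 16 listed, of which 4 fell, 1 rose and 2 did not pass, beside 40.2% called either way over all genes. Their median log2 fold change was -0.25, and that of all tested genes -0.01. SLC22A18, a transporter gene whose start is the nearest to CDKN1C among them, fell from 88, 102 and 91 counts to 46, 40 and 42. Its log2 fold change was -1.19 ± 0.16 (SE; edgeR adjusted p = 1.26e-05). It overlaps SLC22A18AS on the other strand, which had 10 and 0 counts over the groups, and the strand setting of the counting is not given in the sources used here. PHLDA2, a growth-restraining gene imprinted in the same direction as CDKN1C, fell from 32.1 ± 2.52 to 24.2 ± 2.29 CPM (SD, n = 3 each). TSSC4 had -0.40 and CARS, the cysteinyl-tRNA synthetase gene, -0.25, while NAP1L4, a histone chaperone gene between PHLDA2 and CARS, rose by 0.20. The call of TSSC4 ended in the FPKM, and that of PHLDA2 in the FPKM with no filter. KCNQ1, in which the imprinting centre of CDKN1C lies, had 1 count in each group.

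**Figure D3:**
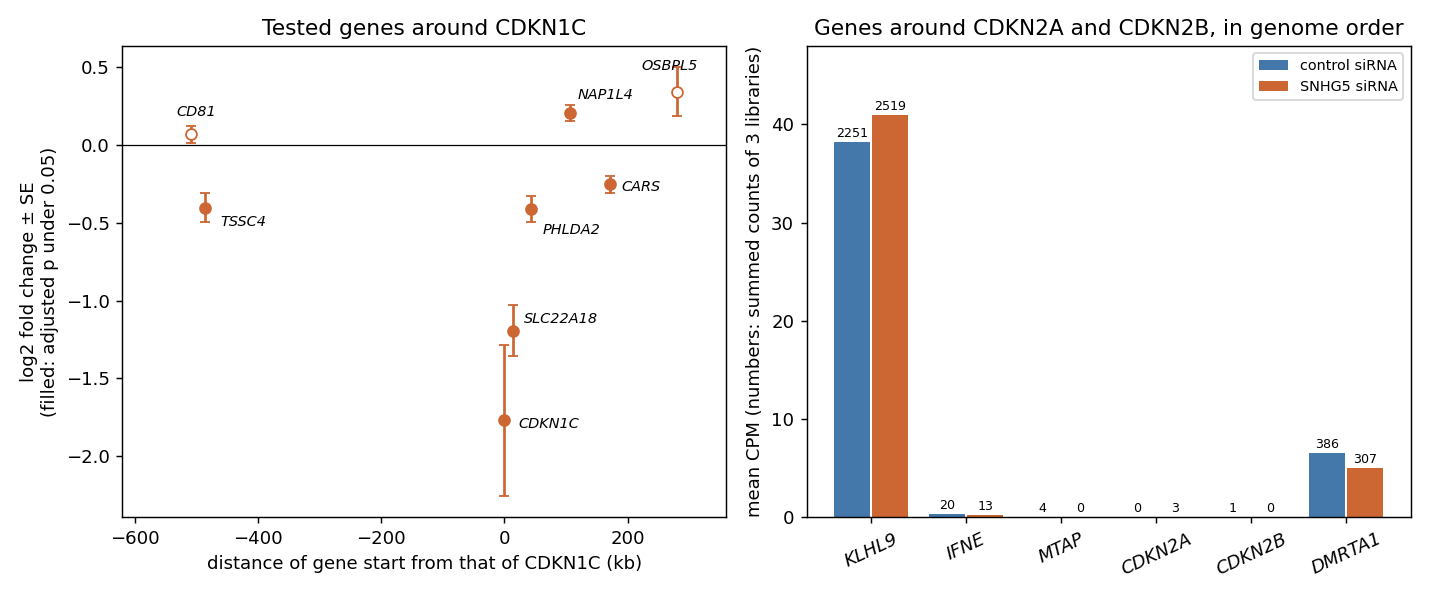
Left: log2 fold change ± SE of the tested genes against the distance of their start from that of CDKN1C in kb, filled where the adjusted p was under 0.05; CDKN1C and SLC22A18 are lowest, and TSSC4, PHLDA2 and CARS lie between -0.41 and -0.25. Right: mean CPM of genes around CDKN2A in genome order, blue for control siRNA and orange for SNHG5 siRNA. The summed counts of 3 libraries stand above each bar. MTAP, CDKN2A and CDKN2B hold 4 counts or fewer in each group, and ELAVL2, with 0, is not drawn.

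Levels of different genes were compared per length, in the authors' FPKM. In the control libraries the order was CDKN1A (184 ± 8.74 FPKM, SD, n = 3), CDKN1B (41.3 ± 0.685), CDKN3 (24.4 ± 0.976), CDKN2C (18.6 ± 0.333), CDKN2D (13.6 ± 0.361) and CDKN1C (0.510 ± 0.103). No 2 neighbours of these 6 overlapped over the 3 libraries. In the knockdown libraries CDKN1A was still the highest at 54.5 ± 0.809 FPKM. CDKN3 (25.4 ± 2.93), CDKN1B (22.6 ± 0.277) and CDKN2C (21.4 ± 1.35) followed, and neighbours in this trio overlapped, so the range of CDKN1B now met that of CDKN2C. CDKN2D came next at 13.4 ± 1.54 FPKM, and CDKN1C last of the 6, listed at 0, 0.382 and 0.320 FPKM.

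The CIP/KIP genes summed to 216, 231 and 231 FPKM in the control libraries and to 76.7, 78.2 and 77.3 FPKM in the knockdown libraries, 2.92-fold less on average. The INK4 genes summed to 32.7, 31.5 and 32.4 FPKM and to 34.3, 36.2 and 34.0 FPKM. Of the FPKM summed over the 7 CIP/KIP and INK4 genes, CIP/KIP genes made up 87.5 ± 0.587% in the control libraries and 69.0 ± 0.544% in the knockdown libraries (SD, n = 3 each). With CDKN3 in the sum the shares were 80.0 ± 0.698% and 56.3 ± 1.48%. CDKN1A alone made up 81.5 ± 0.908% and 70.5 ± 0.482% of the CIP/KIP FPKM. For the CIP/KIP share of the 7 genes and the CDKN1A share the groups did not overlap, with an exact 2-sided permutation p of 0.1, the smallest that 3 against 3 libraries can give, and 0.114 when adjusted over the 8 ratios and shares computed.

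**Figure D4:**
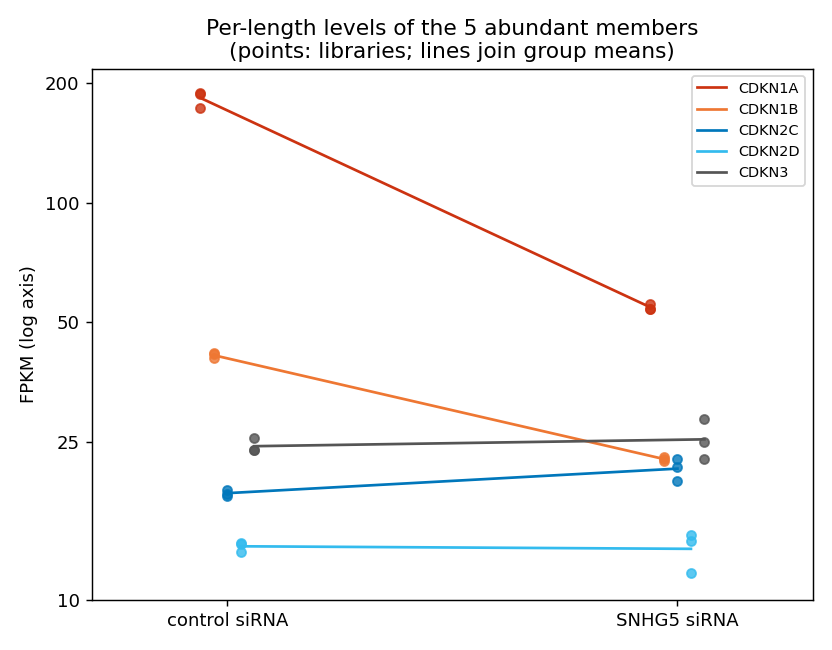
FPKM (log axis) of the 5 members with levels above 10 FPKM; points are single libraries and lines join the group means. CDKN1A drops from 184 to 54.5 FPKM and CDKN1B from 41.3 to 22.6, into the range of CDKN3 and CDKN2C, while CDKN2C goes from 18.6 to 21.4 FPKM and its groups are separate.

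Whether the members moved by different amounts was asked within each library, where scaling cancels. The log2 ratio of CDKN1A to CDKN1B counts was 2.29, 2.41 and 2.30 in the control libraries and 1.32, 1.35 and 1.34 in the knockdown libraries, a difference of -0.99. CDKN1A fell further than CDKN1B, by more than the spread between libraries (exact permutation p = 0.1, adjusted 0.114). The ratio of CDKN1B to CDKN2C moved from 0.93, 1.02 and 1.08 to -0.02, 0.07 and 0.13, so the counts of these 2 genes became about equal. CDKN1A against CDKN2C differed by -1.95 and against CDKN2D by -1.67, and CDKN1B against CDKN2D by -0.67, all without overlap and with the same exact permutation p. For CDKN1A against CDKN1C the groups overlapped (difference 0.18, exact permutation p = 1, adjusted 1). Knockdown replicate 1, with its single CDKN1C count, gave a ratio of 11.04 where the other 2 gave 8.60 and 8.57. The sign of the difference turned on leaving out that library (-0.64) or control replicate 3 (-0.01).

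Among 10467 genes with a mean of at least 5 CPM, those whose profile over the 6 libraries came nearest to that of CDKN1A were RRAD, VTN, GDF15 and CEMIP. Likeness was the root mean square difference in log2 CPM after centring on the control mean, and was 0.215 for RRAD, a small GTPase gene, and 0.296 for CEMIP, a hyaluronan-binding protein gene. RRAD had a log2 fold change of -2.10 and CEMIP of -1.42. The other 2, VTN, encoding vitronectin, and GDF15, a stress-induced growth factor, had -1.59 and -1.45. CDKN1B had closer company: SLC22A23, a transporter gene, differed by 0.0353, PPME1, a phosphatase methylesterase gene, by 0.0440, FBLN2, encoding fibulin 2, by 0.0447 and PLSCR4, a scramblase gene, by 0.0461. Their log2 fold changes were -0.87 to -0.79.

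The promoters of the 2 well-measured members that fell are shown with each GGGCGG in capitals, the core of the GC box to which SP1 is known to bind at CDKN1A (RefSeq, GRCh38.p14, 250 bases before to 50 after the start, plus strand for both).
CDKN1A, chr6:36678464-36678763: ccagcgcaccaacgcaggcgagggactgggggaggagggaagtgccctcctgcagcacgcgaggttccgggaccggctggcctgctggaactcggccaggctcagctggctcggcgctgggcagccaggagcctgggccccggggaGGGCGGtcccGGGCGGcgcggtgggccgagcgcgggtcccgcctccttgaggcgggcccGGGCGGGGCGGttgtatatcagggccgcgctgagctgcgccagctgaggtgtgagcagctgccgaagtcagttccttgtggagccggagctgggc
CDKN1B, chr12:12717118-12717417: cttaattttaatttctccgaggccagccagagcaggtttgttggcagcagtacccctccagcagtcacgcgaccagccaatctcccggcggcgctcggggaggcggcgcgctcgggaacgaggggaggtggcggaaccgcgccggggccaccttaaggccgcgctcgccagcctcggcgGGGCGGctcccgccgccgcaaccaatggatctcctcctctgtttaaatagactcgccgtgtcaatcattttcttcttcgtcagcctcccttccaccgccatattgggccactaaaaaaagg
GGGCGG was searched on both strands (as GGGCGG, and as its reverse complement CCGCCC). The CDKN1A window held 4, the last 2 of which share a base, and the CDKN1B window held 1. Of all 35116 promoter windows, 44.95% held at least 1, and a match is a description of letters only. Of the members that did not fall, CDKN2D held 3, one of the 3 windows of CDKN2C held 6, and CDKN3 held 0. SP1 itself had a log2 fold change of -0.05 (edgeR adjusted p = 0.581).

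The genes around the inhibitors in their pathway were taken by function. Of 24 transcription factors and regulators known to act on inhibitor genes, 22 were tested, 5 rose, 6 fell and 11 did not pass, which is 50% called beside 40.2% of all tested genes (median log2 fold change -0.05). MDM2, a ubiquitin ligase gene, fell from 186 ± 8.73 to 122 ± 4.89 CPM (SD, n = 3 each). CEBPA, at 18, 20 and 15 counts in the control libraries and 7, 3 and 8 in the knockdown libraries, had -1.60 on the log2 scale. Like CDKN1C, CEBPA entered the test through its control libraries alone and so had to differ, and of the 21 genes above the filter in every library 5 rose, 5 fell and 11 did not pass. KLF6, a factor known to raise CDKN1A, rose by 0.45 and ETS1 by 0.37. MYC, a repressor of CDKN1A and CDKN2B, rose by 0.18, a call that ended on leaving out control replicate 2. FOXO3, known to act on CDKN1B, had 0.16 and did not pass (edgeR adjusted p = 0.0727). It passed in 4 of 19 alternatives, among them leaving out knockdown replicate 2 and adding the replicate number to the fit.

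Of 14 genes for the turnover of p21, p27 or p57, all were tested, 4 rose, 3 fell and 7 did not pass, 50% called beside 40.2% of all tested genes (median 0.06). SKP2, the F-box protein that marks p27 for destruction, had 76.6 ± 3.51 and 85.2 ± 4.49 CPM and missed the threshold (0.15, edgeR adjusted p = 0.0511). SKP2 passed in 6 of 19 alternatives, among them leaving out control replicate 3 or knockdown replicate 2. DTL, which with CUL4 marks p21 on PCNA, rose by 0.58, PCNA by 0.32 and UBAC1, of a cytoplasmic p27 ligase, by 0.49. CDC20 fell by 0.40.

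Among 16 cyclins and kinases that the inhibitors bind or that activate CDKs, 14 were tested, 5 rose, 3 fell and 6 did not pass, 57.1% called beside the same 40.2% (median 0.03). CDK2, the kinase held by p21 and p27, rose from 105 ± 1.90 to 138 ± 0.818 CPM, and CCNE2, a cyclin E, by 0.39. CCND1, cyclin D1, fell by 0.71 and CCNH, of the CDK-activating kinase, by 0.47. Of the INK4 partners, CDK6 rose by 0.29, though not in the FPKM, and CDK4 had -0.11 and did not pass (edgeR adjusted p = 0.104). CDK4 passed with upper quartile scaling, with the replicate number added to the fit and on leaving out knockdown replicate 2. Of the 5 genes of inhibitory CDK phosphorylation, 2 rose, 1 fell and 2 did not pass, also beside 40.2% of all tested genes (median -0.14). CDC25A, a phosphatase that activates CDK2, rose by 0.61 and PKMYT1, an inhibitory kinase, by 0.49. The member that fell, CDC25B, had -0.16 and lost its call in 8 of 19 alternatives, among them the FPKM and leaving out control replicate 1, control replicate 2 or knockdown replicate 3.

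Downstream, 19 pocket proteins, E2F and DP factors and MuvB subunits were all tested, and 11 rose, 5 fell and 3 did not pass, which is 84.2% called beside 40.2% of all genes (median 0.26). E2F1 rose by 0.80 and RBL1, encoding p107, by 0.65, while E2F5, an E2F of resting cells, fell by 0.96 and LIN52 by 0.51. RB1 did not pass (-0.06, edgeR adjusted p = 0.519), and its sign turned in 2 of 19 alternatives. It passed in 1 of them, with the GC trend removed and the replicate number added to the fit. Of 15 polycomb proteins and histone modifiers known at the CDKN2A and CDKN2B locus, all were tested, 3 rose, 2 fell and 10 did not pass, 33.3% called beside that 40.2% (median 0.04). The demethylase gene KDM2B rose by 0.69, and the H3K27 demethylase genes KDM6B and KDM6A fell by 0.46 and 0.45. EZH2, the H3K27 methyltransferase gene, had 0.12 and did not pass (edgeR adjusted p = 0.0814). It passed in 2 of 19 alternatives, leaving out knockdown replicate 3 and adding the replicate number to the fit. CBX7 rose by 0.26, a call that ended in DESeq2, with upper quartile scaling and on leaving out control replicate 2, control replicate 3 or knockdown replicate 1.

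**Figure D5:**
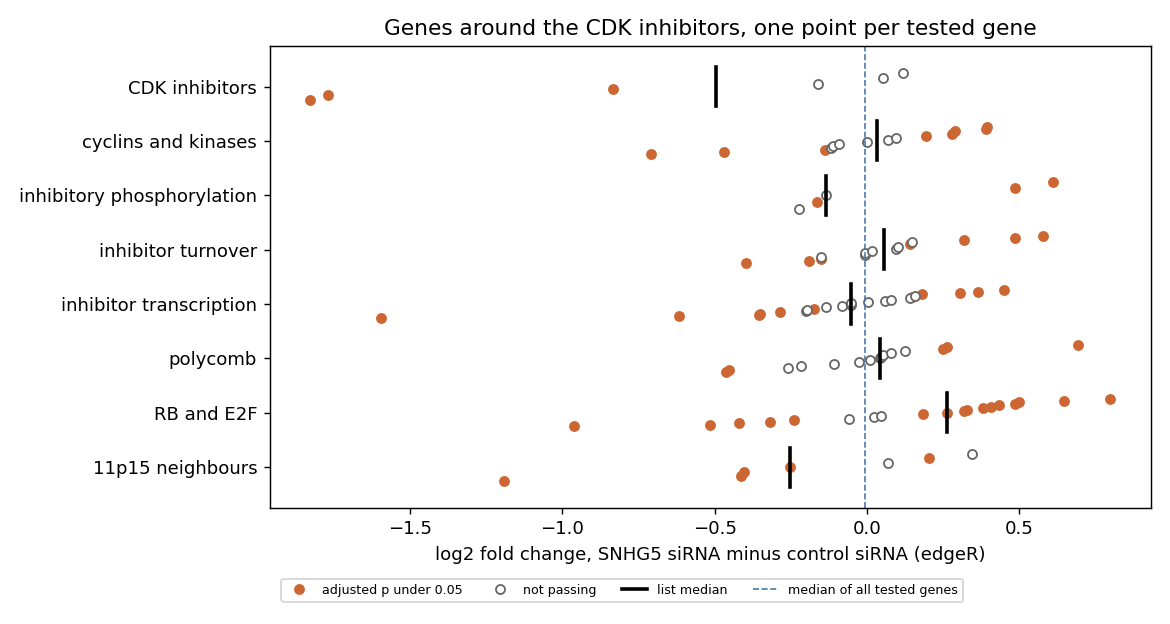
Log2 fold change (horizontal axis) of each tested gene in 8 groups of genes around the CDK inhibitors; filled points had an adjusted p under 0.05, black bars are list medians and the dashed line is the median of all tested genes. The median of the CDK inhibitors is -0.50 with CDKN1C and -0.16 over the 5 members above the filter in every library, and the medians of the other lists lie between -0.25 and 0.26.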

How the data were processed

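The authors deposited one table of counts (raw counts per gene symbol, whole numbers) and one of FPKM (scaled to length and depth by the authors with a tool not stated here); both held the 6 libraries and 0 columns of other samples. Trimmomatic and GRCh38 are named per the submitters' processing notes; aligner, counter and annotation are not given in the sources used here. CPM are counts scaled to the library total. Genes passing filterByExpr were fitted in edgeR 4.0.16 (R 4.3.3) with TMM factors of 0.998 to 1.003; SE is the log2 fold change over the square root of F, and intervals use it. FPKM were tested with limma 3.58.1; DESeq2 1.42.0 was an alternative. Ratios used counts plus 0.5, with exact permutation tests (scipy 1.17.1); plots used matplotlib 3.10.9. The edgeR fit was tested on simulated data. Alternatives changed the scaling, filter, test, replicate block, GC trend or table, or left out each library in turn. The labels do not say that replicates were separate cultures, so p-values measure the spread between these samples, which may be technical. Poisson intervals and floors cover counting error only.

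The members and gene lists were chosen with earlier results of these data known. Named from each list were up to 4 passing genes by absolute log2 fold change, or the 2 highest in CPM where fewer than 2 passed, with 12 cell-cycle regulators and the 4 genes nearest in profile to CDKN1A and to CDKN1B always. SP1, NAP1L4, SLC22A18AS, MTAP, KCNQ1 and the cell markers outside that rule were named after their values were seen. Of 20028 distinct symbols, 19261 matched GENCODE v29. One gene that the rule names is not reported here.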

Additional observations from a re-analysis of the deposited data

How the results depend on the processing

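CDKN1A and CDKN1B were called lower in each of the 13 alternatives and with each library left out, at -1.87 to -1.73 and -0.87 to -0.82. CDKN1C lost its call in the FPKM: -0.30 (limma adjusted p = 0.0696) on log2(FPKM + 1), -1.15 (0.119) on log2(FPKM + 0.1) and -0.30 (0.144) with no filter, where 1 library is listed at 0; the stricter filter left it out. With 1 library left out it was -2.12 to -1.24 (edgeR adjusted p = 0.00161 to 0.0516), CDKN2C 0.08 to 0.16, CDKN2D -0.21 to -0.06 and CDKN3 -0.03 to 0.13, with its sign turned at -0.029 without SNHG5 siRNA replicate 2, and 2 to 3 members were lower. The count of members called higher was 1 instead of 0 (CDKN2C) with the GC trend removed (0.19, edgeR adjusted p = 0.0182; 0.18, 0.00731 with the replicate block added) and in the FPKM (0.19, 0.20 and 0.19; limma adjusted p = 0.0227, 0.0235 and 0.0365); the cause was not tested. The ratio of CDKN1A to CDKN1C ranged from -0.64 to 0.60 with 1 library left out, was -0.0066 without control siRNA replicate 3 and could not be computed in the FPKM.

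The deviations of same-numbered libraries correlated at 0.0463, 0.130 and 0.0264. Those of unlike-numbered libraries correlated at -0.116 to 0.0843, highest for SNHG5 siRNA replicate 3 with control siRNA replicate 1. Whether the numbers pair the samples cannot be told from these values. With the replicate block 5714 genes passed against 5026, and 3 members were lower and 0 higher. Over all alternatives the lists gave 2 to 6 cyclins and kinases lower (3 as reported) and 3 to 5 higher (5), 0 to 3 genes of inhibitory phosphorylation lower (1), 1 to 4 of turnover lower (3) and 3 to 6 higher (4), 2 to 7 of inhibitor transcription lower (6) and 3 to 6 higher (5), 2 to 5 of the CDKN1C region lower (4) and 1 to 3 higher (1), 0 to 1 of the CDKN2A region lower (1) and 0 to 1 higher (0), 1 to 5 granulosa markers higher (1) and 0 to 1 of the other cell markers in each direction (0). Depth limits CDKN1C, CDKN2A and CDKN2B.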
